A study of Mus musculus with 36 samples.

Results

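The genes that mark macrophages and their activation were followed in whole mouse kidneys carrying mutations of both polycystic kidney disease genes, of 1 of them or of neither. The set was 38 genes named by symbol, and 37 of them were analysed among the 18049 genes of the deposited table. Of these, 36 were found by symbol and Adgre1, listed under an older symbol, by its gene identifier. Lilrb4a was not analysed, because the row closest to it spans that gene and a paralog. RNA of whole kidneys of C57BL/6 mice was sequenced in 4 genotypes at 3 postnatal ages (P0, P3 and P12), with 3 libraries in each of the 12 groups and 36 in all. Digenic mice were Pkhd1-/- and Pkd1-RC/RC at once, single mutants were Pkd1-RC/RC or Pkhd1-/-, and the controls were wild type of the same age. Pkd1 encodes polycystin-1, and the RC allele is a point mutation that lowers its function. Pkhd1 encodes fibrocystin. Both are germline alleles, carried by all cells of the mouse.

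Kidney macrophages come partly from precursors that settle before birth and partly from blood monocytes that enter later. Their survival depends on the receptor CSF1R, which binds the growth factors CSF1 and IL-34, and their identity on the transcription factor PU.1, encoded by Spi1. Activated macrophages display Fc receptors, integrins and scavenger receptors and carry lysosomal enzymes. Whole tissue was measured, so that more macrophages and more of a transcript in each macrophage cannot be told apart in any result below.

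Total counts ran from 51411240 to 80789299 per library, and all 37 genes were tested in every comparison. The lowest count of any of them in a library was 3. Column headers of 2 libraries went against their labels, and the labels were used. These were digenic replicate 1 of P12, with P3 in its header, and Pkd1-RC/RC replicate 2 of P12, with Pkhd1 in its header. The targeted gene Pkhd1 stood at 233 CPM (counts scaled to the size of the library) in the second of them. It stood at 178 to 249 CPM in P12 wild type and 19.1 to 20.3 CPM in P12 Pkhd1-/-. The other P12 Pkd1-RC/RC libraries held 225 and 216 CPM, so that this level does not tell Pkd1-RC/RC from wild type. In the first Pkhd1 stood at 32.8 CPM, against 9.97 to 11.3 CPM in P3 digenic and 20.6 and 18.8 CPM in the other P12 digenic libraries. Kidney epithelial genes summed to 6897 CPM in the first, against 4577 to 5498 CPM and 8509.5 and 8435 CPM in these. The age of the first library was not tested beyond these values. Pkhd1 was at or below 32.8 CPM in all 18 libraries labelled with its mutation and at or above 61.6 CPM in the other 18. Xist and Y-linked genes gave another sex than the header in 3 libraries, and all 3 digenic P3 libraries were female, against 1 of 3 in P3 wild type. Transcripts of the adrenal gland, which lies on the kidney, summed to more than 43 CPM in 8 libraries. Among them were digenic replicate 3 of P3 and digenic replicates 2 and 3 of P12. Wild-type replicate 1 of P0 lay just below this limit, at 42.7 CPM, and was kept in the fits without such libraries.

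At P12, 34 of the 37 macrophage genes were higher and 1 was lower in digenic than in wild-type kidneys by edgeR's quasi-likelihood test with a Benjamini-Hochberg adjusted p under 0.05. Of all 18002 genes tested, 12.0% were called higher and 11.0% lower. The median log2 fold change was 2.0 over the 37 genes and -0.01 over all genes. The largest rises, named after their values were seen, were in Fcgr4, Gpnmb, Ctss and Cd163, and the fall was in Mertk. Arg1 and Apoe were not called. Libraries of the 2 groups did not overlap for 33 genes that were higher and 1 that was lower, which held for 17.7% of all genes in each direction. Summed over 36 genes without Apoe, digenic kidneys held 1717, 679 and 1609 CPM, against 335, 395 and 364 CPM in wild type. Digenic replicate 2 was the lowest digenic library for 32 of the 34 genes that rose. In it 33 of the 37 genes stood above all 3 wild-type libraries, against 36 in each of the other 2. The share of all genes that did so in a single library was not computed.

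**Figure D1:**
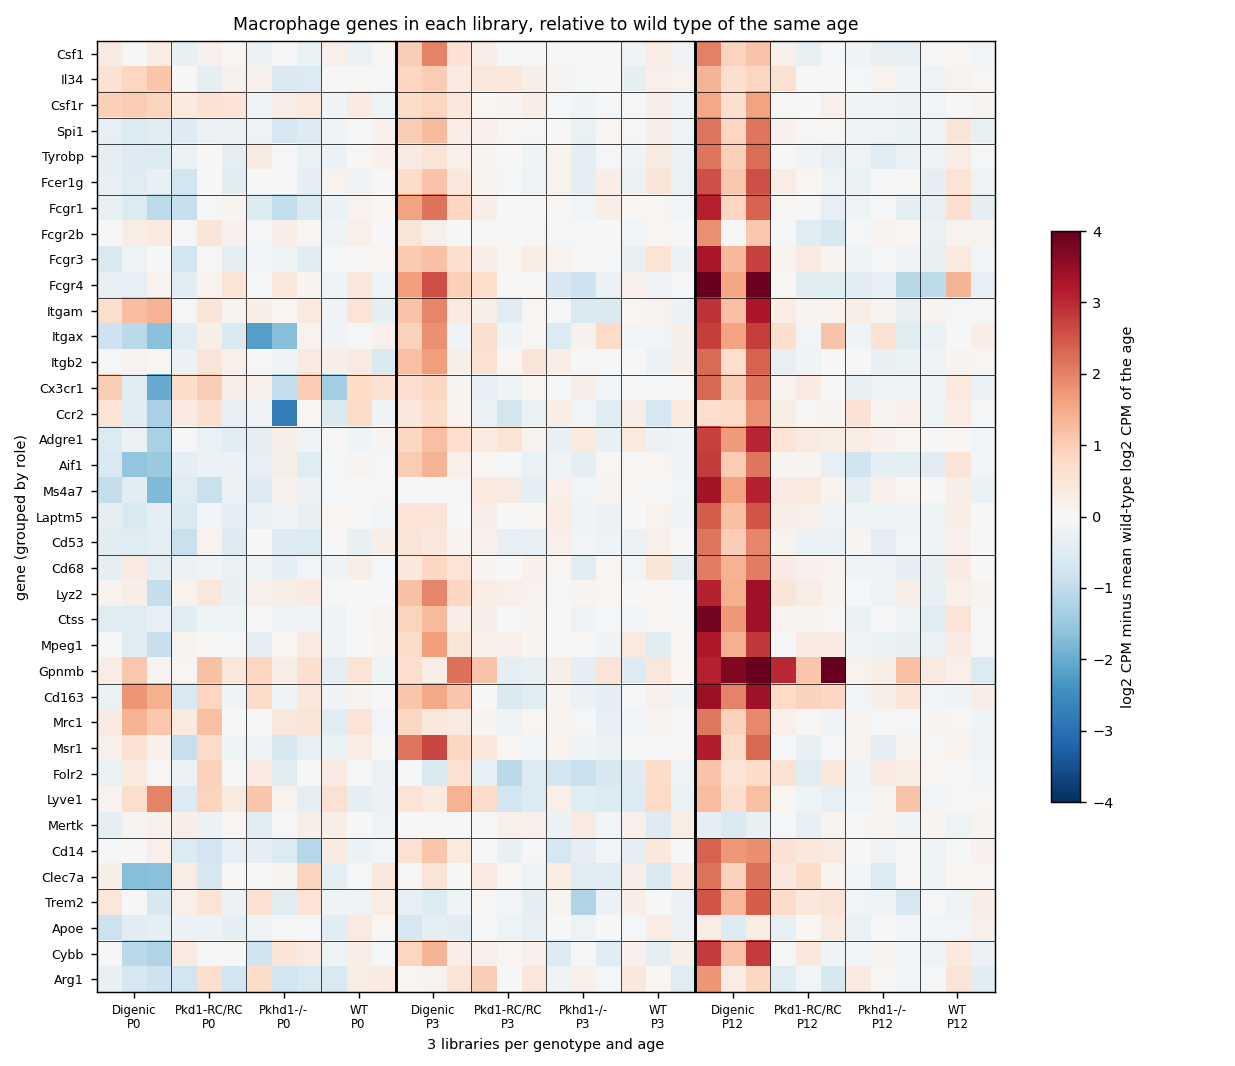
Log2 CPM of 37 macrophage genes (rows, grouped by role) in 36 libraries (columns, 3 per genotype and age), each minus the mean log2 CPM of wild type at that age; colours end at 4 in either direction. At P12 the 3 digenic columns were all above the 3 wild-type columns for 33 of the genes, and replicate 2 (the middle column) was the lowest of the 3 for 35 of the 37.

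Both growth factors of macrophages rose. Csf1 stood at 77.2, 35.0 and 42.3 CPM in digenic kidneys, against 19.4, 20.04 and 17.7 CPM in wild type. The log2 fold change was 1.43 ± 0.24 (± SE, adjusted p = 0.00166), and the highest digenic library was replicate 1. Il34, which in the mouse kidney is made by tubular cells after injury, stood at 37.7, 22.6 and 26.2 CPM against 12.6, 16.1 and 15.2 CPM in wild type, a rise of 0.98 ± 0.20 (adjusted p = 0.00475). For both genes every digenic library lay above every wild-type library. Their receptor Csf1r held 217, 119 and 226 CPM in digenic kidneys, against 69.3, 72.8 and 80.6 CPM in wild type (1.33 ± 0.19, adjusted p = 0.000572). Here replicates 1 and 3 were near each other and replicate 2 lay between them and wild type. In Pkd1-RC/RC kidneys Csf1, Il34 and Csf1r stood at 15.4 to 21.3, 14.4 to 22.0 and 74.8 to 85.2 CPM, and in Pkhd1-/- kidneys at 15.6 to 17.1, 13.1 to 15.9 and 63.6 to 67.7 CPM.

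Spi1, the gene of PU.1, stood at 20.2, 8.28 and 20.2 CPM in digenic kidneys, against 3.98, 6.33 and 3.67 CPM in wild type, a rise of 1.80 ± 0.30 (adjusted p = 0.00146). PU.1 is known to bind sequences with the letters GAGGAA. The 250 bases before the annotated start were searched for these letters on both strands in 33 RefSeq entries (GRCm38.p6), which covered 27 of the genes. GAGGAA was found in 16 of the 33 windows (48.5%), against 23.3% of the 32851 windows of all genes. By gene it was in 13 of 27 (48.1%), against 25.9% of 27025 genes. The longer form GAGGAAGT, which contains GAGGAA, was in 1 of the 33 windows and in 2.44% of all windows. Below are the stretches around the match nearest the start in the 4 genes with the largest P12 rise among those whose match lay before the annotated gene, so that the letters can be read beside their values. They run 5′ to 3′ on the strand of the gene, with the match in capitals (TTCCTC is GAGGAA read on the other strand). The intervals are chr1:171018864-171018919 on the plus strand for Fcgr4, chr3:95526582-95526667 on the plus strand for Ctss, chr7:128062585-128062639 on the plus strand for Itgam and chr3:96293979-96294064 on the minus strand for Fcgr1.
Fcgr4: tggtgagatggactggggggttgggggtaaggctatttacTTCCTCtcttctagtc
Ctss: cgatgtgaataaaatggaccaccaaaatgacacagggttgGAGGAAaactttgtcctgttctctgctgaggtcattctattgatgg
Itgam: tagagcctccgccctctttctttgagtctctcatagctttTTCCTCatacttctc
Fcgr1: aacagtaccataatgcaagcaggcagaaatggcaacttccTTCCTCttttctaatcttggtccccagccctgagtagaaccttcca

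The match ends 17 bases before the start in Fcgr4, 159 in Ctss, 10 in Itgam and 50 in Fcgr1. These are matches of letters, and no binding was measured.

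Activating Fc receptors, which bind the constant part of antibodies, rose. So did the adaptor Fcer1g, which carries their signal, and the adaptor Tyrobp of other receptors. Fcgr4, whose promoter stretch is shown above, stood at 31.3, 2.47 and 12.9 CPM in digenic kidneys, against 0.377, 2.14 and 0.645 CPM in wild type. Its rise of 3.90 ± 0.90 (adjusted p = 0.0132) was uneven, since digenic replicate 2 lay only just above the highest wild-type library. That call was lost without wild-type replicate 3. Fcgr1, the high-affinity receptor, held 19.7, 4.06 and 11.6 CPM against 1.79, 3.61 and 1.73 CPM in wild type (2.31 ± 0.47, adjusted p = 0.00533). Fcgr3 held 54.8, 13.98 and 38.3 CPM against 4.65, 7.53 and 5.32 CPM (2.61 ± 0.40, adjusted p = 0.00125). In both, replicate 1 was the highest digenic library and replicate 2 the lowest. Fcgr2b, the inhibitory receptor of the family, stood at 49.7, 13.7 and 29.3 CPM in digenic kidneys and 11.5, 15.3 and 15.2 CPM in wild type. Its libraries overlapped, and the call (1.14 ± 0.36, adjusted p = 0.0445) was lost without digenic replicate 1 or 3 or any 1 of the wild-type libraries. The change was 0.62 without digenic replicate 1.

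The adaptor Tyrobp, through which TREM2 and other receptors signal, stood at 30.0, 13.2 and 32.4 CPM in digenic kidneys, against 5.93, 8.38 and 6.46 CPM in wild type (1.86 ± 0.27, adjusted p = 0.000776). Fcer1g, the shared signalling chain of the activating Fc receptors, held 31.3, 11.1 and 31.3 CPM against 4.13, 7.64 and 4.604 CPM (2.17 ± 0.37, adjusted p = 0.00193). Neither adaptor had a digenic library within the wild-type range. Fcgr2b, Fcgr4, Fcgr3 and Fcer1g lie close together on chromosome 1, from 170958617 to 171234365 in mm10. Fcgr2b and Fcgr3 share near-identical exons, and Lyz2 has a near-identical copy in Lyz1. The sources used here do not give how shared reads were assigned, so that the split between such copies is uncertain.

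Integrins and chemokine receptors, which carry leukocytes into tissue, also rose. Itgam, the alpha chain CD11b, stood at 22.0, 6.89 and 28.4 CPM in digenic kidneys, against 3.25, 2.80 and 2.86 CPM in wild type (2.68 ± 0.40, adjusted p = 0.000877). Its partner Itgb2 held 18.4, 6.23 and 19.7 CPM against 3.31, 4.18 and 4.09 CPM (1.94 ± 0.33), and Itgax, the alpha chain CD11c, 3.92, 1.73 and 3.91 CPM against 0.453, 0.551 and 0.658 CPM (2.52 ± 0.41). In all 3 genes even the lowest digenic library, replicate 2, exceeded every wild-type library. Cx3cr1, the fractalkine receptor of resident macrophages, stood at 62.8, 25.3 and 56.6 CPM against 11.3, 16.7 and 10.9 CPM (1.89 ± 0.29, adjusted p = 0.0011). Ccr2, the receptor that brings monocytes out of the blood, was low in both, at 3.53, 3.78 and 7.92 CPM in digenic kidneys and 1.89, 2.68 and 2.099 CPM in wild type (1.19 ± 0.28, adjusted p = 0.00937). Replicate 3 held the highest Ccr2 level, and the change without it was 0.72, still called, while the call was lost in the fit of all 36 libraries.

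Of the general identity markers, all 5 rose. Adgre1, the F4/80 antigen, stood at 58.1, 28.4 and 72.9 CPM in digenic kidneys, against 8.92, 9.31 and 8.06 CPM in wild type (2.60 ± 0.27, adjusted p = 0.000104). Ms4a7, a membrane gene of tissue macrophages, held 25.6, 7.82 and 21.7 CPM against 2.57, 2.96 and 2.099 CPM (2.85 ± 0.36, adjusted p = 0.000285). Aif1, an actin-bundling protein known as IBA1, held 14.4, 4.18 and 9.16 CPM against 1.497, 3.06 and 1.94 CPM (2.099 ± 0.39, adjusted p = 0.00274). The tetraspanin Cd53 and the lysosomal membrane gene Laptm5 are shared with other leukocytes. Cd53 stood at 20.1, 8.96 and 17.5 CPM in digenic and 3.91, 5.14 and 4.604 CPM in wild-type kidneys (1.77 ± 0.26, adjusted p = 0.000565). Laptm5 stood at 97.3, 42.2 and 104 CPM in digenic and 15.9, 21.3 and 17.9 CPM in wild-type kidneys (2.14 ± 0.28, adjusted p = 0.000588). Digenic and wild-type libraries did not overlap for any of the 5. Aif1, Trem2 and Adgre1 lie on chromosome 17, as Pkd1 does, at 10.6, 23.8 and 32.8 Mb from it.

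Among lysosomal and lytic genes, Lyz2, the lysozyme of phagocytes, was the most abundant per length after Apoe in P12 kidneys. In digenic kidneys Lyz2 stood at 266, 84.4 and 329 CPM, against 25.5, 36.1 and 34.2 CPM in wild type (2.82 ± 0.43, adjusted p = 0.0018). Ctss, the protease cathepsin S that processes antigen, held 129.5, 30.4 and 95.1 CPM against 6.62, 13.5 and 8.70 CPM (3.15 ± 0.47, adjusted p = 0.00165), and Mpeg1, a pore-forming protein, 142, 41.8 and 111 CPM against 12.9, 19.8 and 14.7 CPM (2.63 ± 0.38). For these 3 genes digenic replicate 2 was far below the other 2 digenic libraries and above all wild-type libraries. Cd68, a lysosomal glycoprotein, varied less between digenic libraries, with 21.1, 13.4 and 21.5 CPM against 4.15, 6.40 and 5.07 CPM in wild type (1.84 ± 0.19, adjusted p = 7.2e-05). Gpnmb, a glycoprotein of lipid-laden macrophages, and Ccr2 were the 2 genes with their lowest digenic level in replicate 1. Gpnmb stood at 1.97, 3.00 and 3.53 CPM in digenic kidneys, against 0.264, 0.236 and 0.126 CPM in wild type (3.75 ± 0.69, adjusted p = 0.00284).

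Of the 6 scavenger and endocytic receptors, 5 rose and 1 fell. Cd163, which takes up haemoglobin bound to haptoglobin, stood at 19.3, 7.03 and 18.9 CPM in digenic kidneys, against 1.62, 1.59 and 2.12 CPM in wild type (3.08 ± 0.33, adjusted p = 0.000104). Mrc1, the mannose receptor, held 92.6, 40.6 and 81.7 CPM against 22.9, 22.5 and 18.8 CPM (1.74 ± 0.24, adjusted p = 0.000615). The lipoprotein scavenger Msr1 held 16.2, 3.04 and 9.05 CPM against 1.90, 2.02 and 1.57 CPM (2.36 ± 0.44, adjusted p = 0.00315). Each of these 3 separated the groups completely. The other 3 had the smaller estimates of this role. Lyve1, a hyaluronan receptor of resident macrophages which lymphatic endothelium also expresses, stood at 3.64, 2.43 and 3.53 CPM in digenic and 1.40, 1.58 and 1.57 CPM in wild-type kidneys (1.08 ± 0.30, adjusted p = 0.0198). Folr2, a folate receptor of resident macrophages, stood at 2.27, 1.5001 and 1.70 CPM in digenic and 1.07, 1.02 and 0.936 CPM in wild-type kidneys (0.85 ± 0.28, adjusted p = 0.0416). Mertk, a receptor for the uptake of dying cells that tubular cells express too, stood at 40.6, 35.4 and 42.8 CPM in digenic and 56.6, 45.3 and 56.1 CPM in wild-type kidneys, and fell (-0.41 ± 0.13, adjusted p = 0.0337). All 3 groups of values were separate, but the margins were narrow. The Lyve1 call was lost without digenic replicate 1 or 3 or wild-type replicate 1 or 3, and the Folr2 call also without wild-type replicate 2. For Mertk the call was lost without digenic replicate 1 or 2 or wild-type replicate 1 or 3.

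Cd14, the co-receptor for bacterial lipopolysaccharide, had the smallest adjusted p of the set. It stood at 23.5, 15.4 and 16.7 CPM in digenic kidneys, against 4.001, 4.65 and 5.17 CPM in wild type (2.005 ± 0.16, adjusted p = 1.45e-05), with every digenic library far above wild type. Clec7a, the receptor dectin-1 for fungal glucans, held 6.498, 2.73 and 6.68 CPM against 1.26, 1.497 and 1.51 CPM (1.90 ± 0.30, adjusted p = 0.000995). Trem2, a lipid-sensing receptor that signals through Tyrobp, held 6.74, 2.94 and 6.27 CPM against 1.08, 1.02 and 1.39 CPM (2.18 ± 0.29, adjusted p = 0.000296). Cybb, the catalytic subunit of the phagocyte oxidase, stood at 49.5, 15.6 and 49.1 CPM in digenic and 6.30, 9.19 and 6.05 CPM in wild-type kidneys (2.41 ± 0.38). Apoe, the lipid carrier apolipoprotein E, was the most abundant of the genes per length, at 419 ± 126 RPKM (counts scaled by gene length and library size) in digenic and 403 ± 49.8 RPKM in wild-type kidneys (SD, n = 3 each). The groups overlapped, with 974, 541 and 975 CPM in digenic and 743, 739.6 and 912 CPM in wild-type kidneys (0.05 ± 0.22, adjusted p = 0.888). Arg1, the arginase of alternatively activated macrophages, was the lowest of the genes per length in digenic kidneys and overlapped as well, with 1.16, 0.399 and 0.589 CPM in digenic and 0.302, 0.473 and 0.228 CPM in wild-type kidneys (1.11 ± 0.41, adjusted p = 0.0682).

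**Figure D2:**
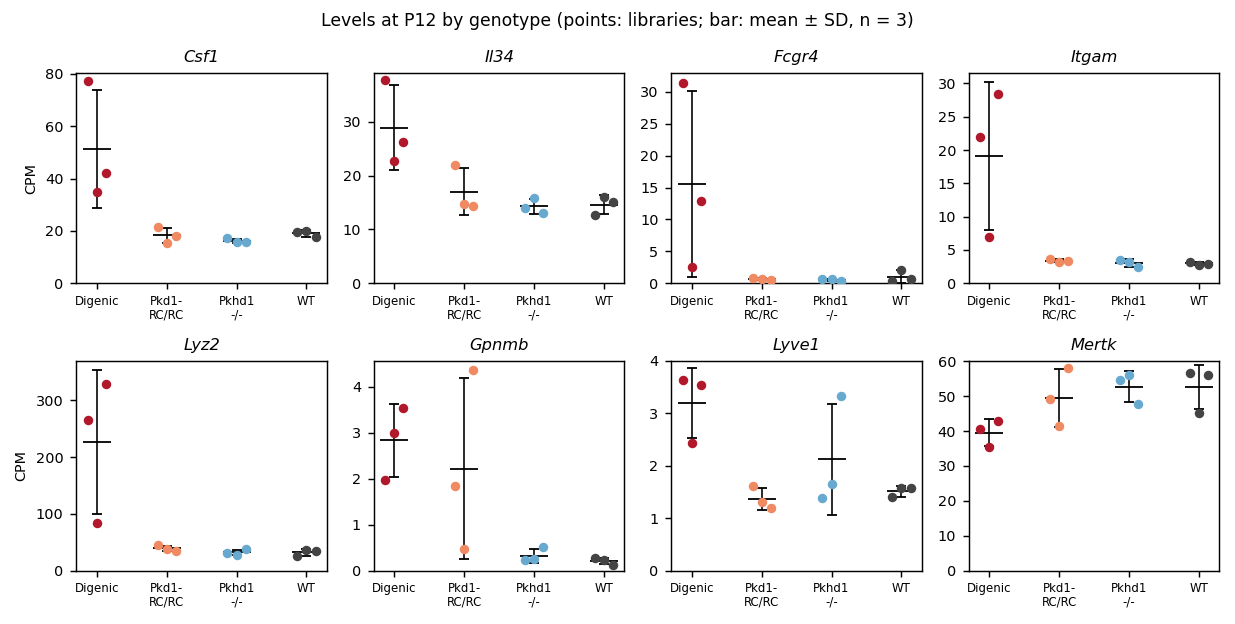
CPM at P12 of 8 macrophage genes in digenic, Pkd1-RC/RC, Pkhd1-/- and wild-type kidneys, with points for libraries and bars for the mean ± SD of 3. Digenic points lie above wild type in every panel but Mertk, where they lie below, and Gpnmb is also above wild type in the 3 Pkd1-RC/RC libraries.

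Neither single mutation alone moved a macrophage gene past the test at P12. In Pkd1-RC/RC against wild type 0 genes were called, with 0.117% of all genes called higher and 0.150% lower, and the median log2 fold change was 0.09. Unadjusted p-values under 0.05 were found for 3 of the 37 and for 1343 of the 18002 genes. DESeq2 made 1 call among the 37. In Pkhd1-/- against wild type 0 were called, with 0.00555% of all genes higher and 0.0278% lower, and a median of -0.13. An unadjusted p under 0.05 was found there for 0 of the 37 and 793 of the 18002 genes, and DESeq2 made 0 calls. Pkd1-RC/RC libraries did not overlap with wild type for 6 higher genes (16.2%, against 6.12% of all genes) and 0 lower (6.35% of all genes). These were Gpnmb, Cd163, Trem2, Clec7a, Cd14 and Adgre1. All 3 Pkd1-RC/RC libraries of P12 were male, whereas wild-type replicate 2 and Pkhd1-/- replicates 1 and 2 were female. Sex and genotype are thus partly confounded in the Pkd1-RC/RC comparisons. Gpnmb stood out, with 1.84, 0.463 and 4.36 CPM in Pkd1-RC/RC kidneys, against 0.264, 0.236 and 0.126 CPM in wild type. Its change of 3.42 ± 0.69 missed the threshold (adjusted p = 0.0888), and the spread among the Pkd1-RC/RC kidneys was large. Gpnmb was the 1 gene that DESeq2, a fit of all 36 libraries and the fit without Pkd1-RC/RC replicate 2, the library whose header names Pkhd1, called. Cd163 stood at 3.09, 3.35 and 3.19 CPM in Pkd1-RC/RC kidneys, against 1.62, 1.59 and 2.12 CPM in wild type (0.85 ± 0.32, adjusted p = 0.563), a smaller and more even difference. In Pkhd1-/- kidneys 0 genes lay wholly above wild type (6.37% of all genes) and 2, Csf1r and Csf1, wholly below (9.09% of all genes). Pkd1-RC/RC against Pkhd1-/- also gave 0 calls, with 0.283% of all genes higher and 0.228% lower. An unadjusted p under 0.05 was found for 5 of the 37 and 2236 of the 18002 genes, and DESeq2 made 1 call, again of Gpnmb.

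Digenic kidneys were also set against each single mutant at P12. Against Pkd1-RC/RC, 33 genes were higher and 0 lower, with 10.3% of all genes called higher and 9.24% lower, and the median was 1.83. Against Pkhd1-/-, 32 were higher and 1 lower, with 15.5% of all genes higher and 12.6% lower, and the median was 2.17. These comparisons and the one with wild type share the digenic libraries. Cd14 stood at 6.83, 6.10 and 5.84 CPM in Pkd1-RC/RC and 4.55, 4.14 and 4.601 CPM in Pkhd1-/- kidneys, below every digenic library (1.56 ± 0.16 and 2.06 ± 0.16, adjusted p = 0.000188 and 9.74e-06). Cd68 stood at 6.496, 5.80 and 5.67 CPM and 4.55, 4.64 and 3.996 CPM in these kidneys (1.64 ± 0.19 and 2.09 ± 0.20), and Adgre1 at 12.8, 11.3 and 10.6 CPM and 10.7, 9.84 and 9.29 CPM (2.19 ± 0.26 and 2.42 ± 0.26). No single-mutant library reached the lowest digenic library in these genes. Tyrobp stood at 6.98, 6.21 and 5.44 CPM in Pkd1-RC/RC and 5.98, 5.12 and 5.66 CPM in Pkhd1-/- kidneys, and Cd53 at 4.96, 3.87 and 3.77 CPM and 4.87, 3.45 and 4.17 CPM (2.02 and 2.17 for Tyrobp, 1.88 and 1.90 for Cd53 on the log2 scale).

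Ms4a7 stood at 3.17, 3.33 and 2.77 CPM in Pkd1-RC/RC and 1.97, 2.89 and 2.65 CPM in Pkhd1-/- kidneys (2.57 ± 0.35 and 2.87 ± 0.36), and Laptm5 at 21.7, 21.1 and 15.8 CPM and 16.6, 16.2 and 16.1 CPM (2.05 ± 0.28 and 2.31 ± 0.29). The mannose receptor Mrc1 held 24.5, 21.9 and 19.4 CPM and 23.0, 20.4 and 20.8 CPM (1.70 ± 0.24 and 1.74 ± 0.24), and Trem2 1.93, 1.56 and 1.66 CPM and 1.06, 0.995 and 0.709 CPM (1.63 ± 0.28 and 2.52 ± 0.30). In all 4 genes both single mutants lay below every digenic library. Cd163 stood at 1.63, 2.06 and 2.51 CPM in Pkhd1-/- kidneys, and the digenic kidneys exceeded it by 2.87 ± 0.33 and Pkd1-RC/RC kidneys by 2.23 ± 0.32. Csf1r in digenic kidneys exceeded Pkd1-RC/RC by 1.24 ± 0.19 and Pkhd1-/- by 1.51 ± 0.19, with the levels given above. Aif1 stood at 2.23, 2.24 and 1.64 CPM in Pkd1-RC/RC and 1.18, 1.57 and 1.57 CPM in Pkhd1-/- kidneys. All of these differences were called.

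Gpnmb stood apart, since digenic kidneys were not called apart from Pkd1-RC/RC (0.33 ± 0.58, adjusted p = 0.735) but were from Pkhd1-/- (3.14 ± 0.67, adjusted p = 0.0051). Folr2, Apoe and Mertk were the other genes with no call against Pkd1-RC/RC. Arg1 was called higher against Pkd1-RC/RC (1.602 ± 0.43, adjusted p = 0.0203), where it stood at 0.219, 0.296 and 0.193 CPM, but that call was lost without digenic replicate 1 or Pkd1-RC/RC replicate 1 or 3. Against Pkhd1-/-, Arg1, Folr2, Lyve1 and Apoe were not called and Mertk was lower (-0.42 ± 0.13, adjusted p = 0.0284).

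The series asks how the 2 mutations interact, and the interaction was tested as digenic minus both single mutants plus wild type on the log2 scale, which is 0 when their effects add up. At P12 it was above 0 for 27 genes and below 0 for 0 by the same test, with 5.38% of all genes called above and 3.19% below, and its median was 2.01 over the 37 genes. It was 1.62 ± 0.23 for Cd14 (adjusted p = 0.0035), 1.88 ± 0.27 for Cd68 (adjusted p = 0.0036) and 2.33 ± 0.39 for Tyrobp (adjusted p = 0.00771). Larger estimates with wider errors came from Ctss (3.32 ± 0.64, adjusted p = 0.0173) and Fcgr4 (5.47 ± 1.29, adjusted p = 0.0336). For the growth factor axis it was 1.72 ± 0.34 for Csf1 (adjusted p = 0.0136) and 1.42 ± 0.26 for Csf1r (adjusted p = 0.0111), while Il34 was not called (0.79 ± 0.28, adjusted p = 0.103). Adgre1, Cd53, Laptm5, Ms4a7 and Aif1 gave 2.01, 2.01, 2.22, 2.59 and 2.76. Without Pkhd1-/- replicate 2 the count was 16, and without digenic replicate 1 or Pkd1-RC/RC replicate 2, the libraries whose headers go against their labels, it was 26 and 24. Against wild type, 31 genes were called higher without that digenic library.

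At P3, 10 of the 37 genes were higher and 0 lower in digenic than in wild-type kidneys by edgeR's test, with 2.09% of all genes called higher and 0.610% lower. The median was 0.73 over the 37 genes and -0.01 over all 18043. All 10 were also among the 34 called higher at P12, but that set holds 91.9% of the 37 genes, so that such an overlap says little. Libraries of the groups did not overlap for 19 higher genes (9.82% of all genes) and 1 lower (8.29% of all genes). Replicate 2 was the highest digenic library for 27 of the 37 genes and replicate 3 the lowest for 28, and the summed level without Apoe was 540.0, 708 and 429 CPM in digenic kidneys, against 320.1, 338 and 313 CPM in wild type. The count depended on single libraries. Leaving out digenic replicate 2 or wild-type replicate 1 gave 4 calls, leaving out wild-type replicate 3 gave 6 and leaving out digenic replicate 3 gave 19. With the sex read from expression as a term, 0 genes were called and the median was again 0.73. With the sex of the header as a term, chosen after the data were seen, 3 were called at a median of 0.80. All digenic P3 libraries were female, so that sex and genotype are partly confounded in this comparison, and the part of sex beyond these fits was not tested. Without libraries holding adrenal transcripts, 16 were called.

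The receptor Csf1r stood at 87.8, 95.1 and 73.3 CPM in P3 digenic kidneys, against 50.1, 62.1 and 47.8 CPM in wild type, and its ligand Csf1 at 31.4, 63.1 and 23.6 CPM against 14.4, 19.4 and 14.3 CPM. The changes were 0.67 ± 0.12 (adjusted p = 0.0125) and 1.29 ± 0.28 (adjusted p = 0.0329), and for Csf1 replicate 2 alone was above 60 CPM. Without that library the Csf1 change was 0.77 and not called, and the Csf1r call was lost as well. The Csf1 call was also lost without any 1 of the wild-type libraries, and the Csf1r call without wild-type replicate 1. Spi1 stood at 9.39, 11.4 and 5.84 CPM against 4.47, 5.62 and 4.22 CPM in wild type (0.88 ± 0.21, adjusted p = 0.0473), with digenic replicate 3 just above the highest wild-type library.

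Of the Fc receptors, 3 of 4 rose at P3. Fcgr1 stood at 8.10, 11.9 and 4.63 CPM in digenic kidneys, against 2.74, 2.70 and 2.41 CPM in wild type (1.64 ± 0.27, adjusted p = 0.00831). Fcgr4 held 5.50, 10.3 and 3.33 CPM against 1.99, 1.55 and 1.62 CPM (1.88 ± 0.35, adjusted p = 0.0151), and Fcgr3 12.6, 13.8 and 9.59 CPM against 4.89, 8.88 and 5.17 CPM (0.91 ± 0.21, adjusted p = 0.0422). Their lowest digenic library, replicate 3, lay nearest to wild type. The inhibitory Fcgr2b was at 7.83, 6.32 and 5.60 CPM and 5.17, 5.86 and 5.61 CPM and overlapped.

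Scavenger receptors and lysosomal genes made up the rest of the calls. Msr1 stood at 10.3, 14.7 and 4.11 CPM in digenic kidneys, against 2.27, 2.24 and 2.38 CPM in wild type, the largest called change at this age (2.06 ± 0.34, adjusted p = 0.00849). Cd163 held 5.22, 7.12 and 5.23 CPM against 2.32, 2.73 and 2.20 CPM, Lyz2 68.6, 118 and 54.2 CPM against 30.6, 32.1 and 29.4 CPM and Ctss 22.8, 29.8 and 14.8 CPM against 11.4, 12.9 and 12.6 CPM. No digenic library of these 4 genes fell within the wild-type range. The changes were 1.26 ± 0.21, 1.37 ± 0.21 and 0.86 ± 0.19 (adjusted p = 0.00849, 0.00569 and 0.0334). Itgam, Cybb and Mpeg1 had changes of 1.28, 0.86 and 1.01 that missed the threshold (adjusted p = 0.0552, 0.0794 and 0.0597), and the markers Ms4a7 and Trem2, which rose at P12, stood at -0.08 and -0.37.

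Against the single mutants at P3, digenic kidneys had 4 genes higher and 0 lower than Pkd1-RC/RC (0.327% and 0.133% of all genes) and 18 higher and 0 lower than Pkhd1-/- (2.65% and 0.837% of all genes). The first 4 were Cd163, Fcgr1, Msr1 and Lyz2. By expression all digenic libraries of P3 were female and all Pkhd1-/- libraries male, so that sex and genotype cannot be told apart between them. The header of Pkhd1-/- replicate 2 names female. Of the Pkd1-RC/RC libraries replicate 1 alone was female by expression, and the headers name all of them as male. Cd163 stood at 2.42, 1.595 and 1.72 CPM in Pkd1-RC/RC and 2.58, 2.03 and 1.86 CPM in Pkhd1-/- kidneys (digenic 1.61 ± 0.21 and 1.43 ± 0.21), and Msr1 at 3.06, 2.42 and 2.11 CPM and 2.53, 2.06 and 1.93 CPM (1.93 ± 0.34 and 2.14 ± 0.34). Digenic libraries lay above all of these. Fcgr1 stood at 3.14, 2.59 and 2.56 CPM in Pkd1-RC/RC and 2.78, 2.44 and 3.13 CPM in Pkhd1-/- kidneys, and Lyz2 at 37.9, 35.2 and 33.7 CPM and 29.8, 33.2 and 32.7 CPM. These too were below every digenic library. Among the genes called against Pkhd1-/- alone, Fcgr4 stood at 1.09, 0.955 and 1.46 CPM, Itgam at 3.56, 2.46 and 2.47 CPM and Cybb at 4.92, 6.74 and 5.18 CPM in Pkhd1-/- kidneys. Digenic kidneys exceeded them by 2.44 ± 0.36, 1.68 ± 0.33 and 1.21 ± 0.24 (adjusted p = 0.00454, 0.0151 and 0.0168), with 8.33, 14.4 and 4.82 CPM of Itgam and 12.8, 18.2 and 8.47 CPM of Cybb. Csf1, Csf1r and Ctss exceeded Pkhd1-/- by 1.31, 0.76 and 0.94, from 15.3, 15.9 and 16.1 CPM, 50.9, 47.1 and 51.3 CPM and 12.2, 10.7 and 11.8 CPM in Pkhd1-/- kidneys. Without digenic replicate 2 the Csf1 difference was 0.79, still called. That a gene was called against 1 single mutant and not the other was not tested as a difference.

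At P3 the count against Pkd1-RC/RC was 15 without digenic replicate 3 and 0 to 2 without any other 1 of the 6 libraries. Against Pkhd1-/- it was 6 to 9 without any 1 library other than digenic replicate 3, without which it was 20. Both counts were 0 with sex as a term. Pkd1-RC/RC and Pkhd1-/- against wild type each gave 0 calls, with 0.0277% and 0% of all genes called higher and 0.0166% in both called lower. An unadjusted p under 0.05 was found for 0 and 1 of the 37. This held for 805 and 396 of all 18043 genes, and DESeq2 made 0 calls in both. Pkd1-RC/RC against Pkhd1-/- gave 0 calls too (0.0665% of all genes higher and 0.0277% lower) and 0 DESeq2 calls. There 1 of the 37 and 705 of all genes had an unadjusted p under 0.05. The interaction at P3 was called for 0 genes (0% of all genes in either direction), with a median of 0.78 and 7 DESeq2 calls. For it 20 of the 37 and 1457 of all 18043 genes had an unadjusted p under 0.05.

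**Figure D3:**
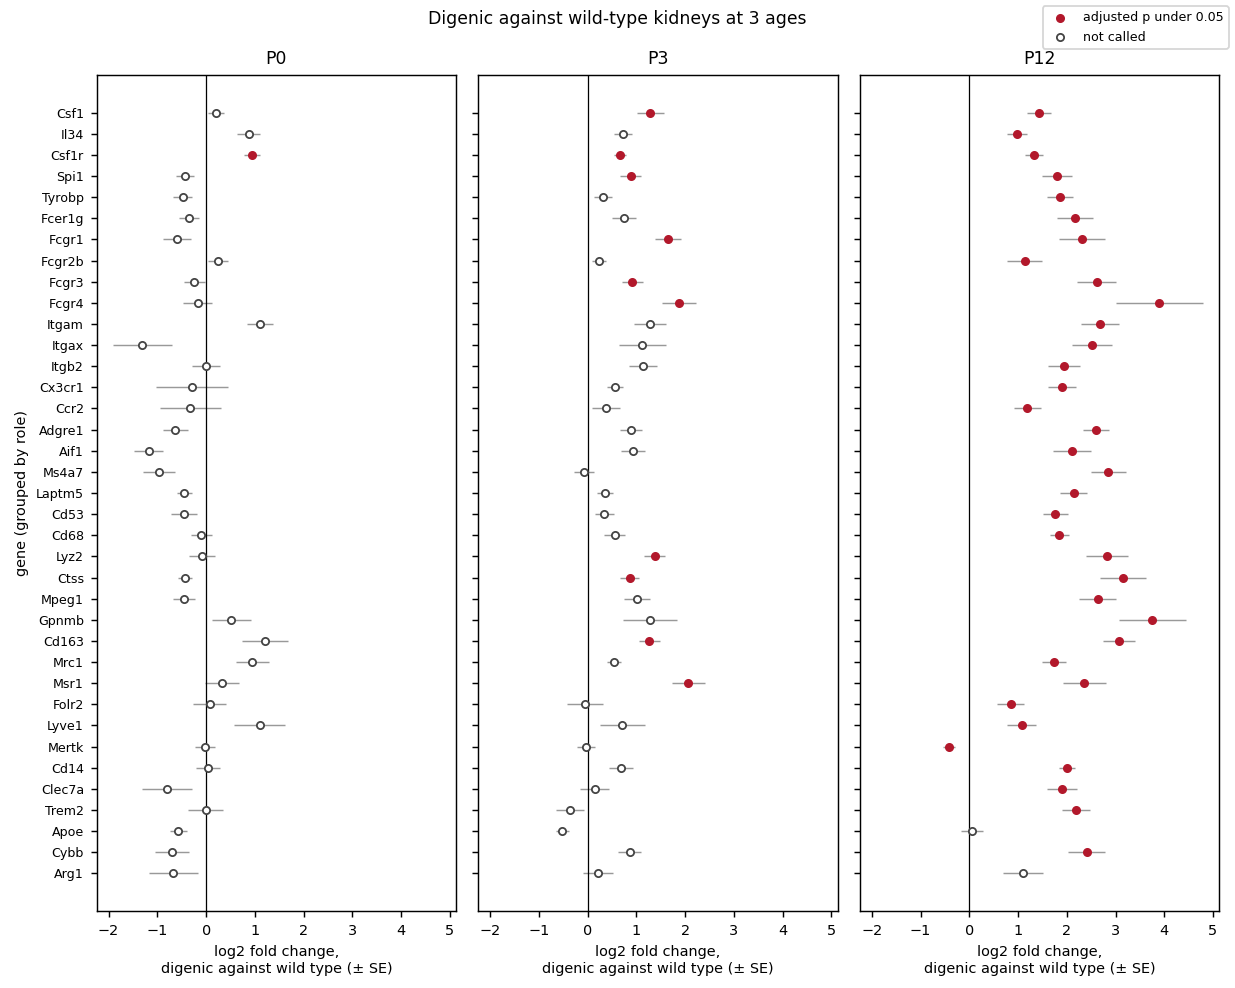
Log2 fold change ± SE of 37 macrophage genes, digenic against wild type, at P0, P3 and P12, with filled points for an adjusted p under 0.05. At P0 the points lie on both sides of 0 with Csf1r alone called, at P3 10 are called, and at P12 34 are called to the right of 0 and Mertk to the left.

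At birth the pattern was mixed. In digenic against wild-type kidneys at P0, 1 gene was higher and 0 lower by edgeR's test, with 0.466% of all genes higher and 0.205% lower, and the median was -0.24. The 1 gene was Csf1r, at 116, 121 and 109.8 CPM in digenic kidneys, against 54.6, 75.4 and 51.9 CPM in wild type (0.94 ± 0.16, adjusted p = 0.0238). All digenic libraries lay above wild type, but the call was lost without any 1 of the digenic libraries or without wild-type replicate 1 or 3. DESeq2 called 3 genes higher (Csf1r, Il34 and Itgam) and 2 lower (Aif1 and Ctss). Pkd1-RC/RC kidneys held 77.9, 89.0 and 86.3 CPM of Csf1r, also above every wild-type library, though not called (0.47 ± 0.16, adjusted p = 0.422). Digenic libraries did not overlap with wild type for 3 higher genes (11.0% of all genes) and 11 lower ones (29.7% of the 37, against 11.8% of all genes).

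Besides Csf1r the higher ones were Il34, at 7.81, 9.46 and 11.1 CPM in digenic and 5.14, 5.34 and 5.03 CPM in wild-type kidneys, and Itgam, at 4.73, 6.82 and 7.68 CPM and 2.61, 4.11 and 2.24 CPM. Neither was called (adjusted p = 0.109 and 0.0821). The 11 lower genes were Adgre1, Aif1, Ms4a7, Laptm5, Cd53, Itgax, Fcgr1, Fcer1g, Tyrobp, Ctss and Spi1, with log2 fold changes from -1.31 (Itgax) to -0.36 (Fcer1g). Aif1 stood at 1.70, 0.867 and 0.915 CPM in digenic kidneys and 2.51, 2.82 and 2.56 CPM in wild type (-1.18 ± 0.29, adjusted p = 0.0853), and Ms4a7 at 1.28, 1.86 and 0.721 CPM and 2.45, 2.53 and 2.59 CPM (-0.97 ± 0.33, adjusted p = 0.185). Neither passed the test. Neutrophil markers summed to 12.998, 15.4 and 26.0 CPM in digenic and 33.8, 32.2 and 31.4 CPM in wild-type kidneys at this age, and their part in these values was not tested. Cx3cr1 and Clec7a differed widely between digenic libraries, at 13.7, 5.26 and 1.69 CPM and 1.59, 0.387 and 0.402 CPM.

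All other comparisons at P0 gave 0 calls. Digenic against Pkd1-RC/RC (0.0277% of all genes higher, 0.0111% lower) had 7 of the 37 with an unadjusted p under 0.05. This held for 909 of all 18035 genes, and DESeq2 made 1 call, of Il34. Digenic against Pkhd1-/- (0.172% and 0.0721%) had 13 of the 37 and 2688 of all genes with such a p. DESeq2 made 4 calls there, Csf1r, Il34 and Itgam higher and Aif1 lower. Pkd1-RC/RC against wild type (0.0166% and 0%) and Pkhd1-/- against wild type (0% and 0.0111%) had 3 each and 0 DESeq2 calls. Over all genes their counts were 1880 and 849. Pkd1-RC/RC against Pkhd1-/- (0.0333% and 0.0111%) had 0 of the 37, 1105 of all genes and 0 DESeq2 calls. The interaction (0.00554% and 0%) had 2 of the 37, 1067 of all genes and 0 DESeq2 calls. Il34 and Csf1r came nearest to a call in digenic against Pkhd1-/- (1.15 ± 0.24 and 0.78 ± 0.16, adjusted p = 0.0781 for both).

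Whether the digenic effect changed with age was tested in 1 fit of all 36 libraries. From P0 to P12 it increased for 26 genes and decreased for 0, with 5.22% of all genes increasing and 3.57% decreasing, and the median change was 2.21 on the log2 scale. The effects at P0 and P12 were -0.63 and 2.60 for Adgre1, -0.97 and 2.85 for Ms4a7 and -0.43 and 3.15 for Ctss, and all 3 changes had an adjusted p of 3.98e-06. From P3 to P12 it increased for 11 genes and decreased for 0, with 1.34% of all genes increasing and 0.986% decreasing. These were Ms4a7, Laptm5, Ctss, Trem2, Tyrobp, Adgre1, Cd68, Cd14, Fcgr3, Cd53 and Mpeg1. Trem2 had effects of -0.37 at P3 and 2.18 at P12 (adjusted p of the change = 0.00186). Csf1 and Msr1, called at both ages, had effects of 1.29 and 2.06 at P3 and of 1.43 and 2.36 at P12, and their change from P3 was not called. The P3 to P12 count was 23 without digenic replicate 2 of P12, 6 without digenic replicate 1 or wild-type replicate 1 of P12 and 7 without digenic replicate 3 or wild-type replicate 3 of P12 or wild-type replicate 2 of P3. The effect of Pkd1-RC/RC changed for 0 genes from P3 to P12 (0.00554% of all genes in each direction), with 0 DESeq2 calls. For this change 3 of the 37 and 559 of all 18049 genes had an unadjusted p under 0.05.

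In wild-type kidneys the macrophage genes moved in both directions between birth and P12. At P12 against P0, 5 genes were higher and 10 lower by edgeR's test over 36 libraries, with 26.2% of all genes higher and 23.6% lower. The shares of the 37 genes called were 13.5% higher and 27% lower, so that neither stood clearly above the share of all genes. For P12 against P3 and for P3 against P0 both shares lay below those of all genes. Per length, the most abundant genes at P12 were Apoe (403 ± 49.8 RPKM), Lyz2 (25.2 ± 4.46), Csf1r (15.2 ± 1.18), Tyrobp (12.3 ± 2.29) and Mertk (12.1 ± 1.48, SD, n = 3 each), of which the last 2 did not differ beyond their spread. At P0 they were Apoe (121 ± 32.1 RPKM), Lyz2 (16.9 ± 0.356), Tyrobp (15.1 ± 2.27) and Ctss (13.1 ± 1.29), and Itgax, Gpnmb and Ccr2 were lowest.

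Apoe stood at 173, 299.5 and 249 CPM at P0, 285, 360.3 and 251 CPM at P3 and 743, 739.6 and 912 CPM at P12, and the rise over P0 was 1.73 ± 0.20 (adjusted p = 4.91e-08). Il34 stood at 5.14, 5.34 and 5.03 CPM at P0, 4.68, 6.89 and 6.60 CPM at P3 and 12.6, 16.1 and 15.2 CPM at P12 (1.498 ± 0.22, adjusted p = 2.36e-06). The inhibitory receptor Fcgr2b stood at 3.79, 4.91 and 4.23 CPM at P0, 5.17, 5.86 and 5.61 CPM at P3 and 11.5, 15.3 and 15.2 CPM at P12 (1.70 ± 0.26, adjusted p = 3.67e-06). In these 3 every P12 library was above every P3 library, and each was also called at P12 against P3. Mertk held 31.1, 26.2 and 23.3 CPM at P0, 37.3, 22.9 and 39.9 CPM at P3 and 56.6, 45.3 and 56.1 CPM at P12. Mertk rose by 0.97 ± 0.19 over P0 and 0.66 ± 0.19 over P3, Mrc1 by 0.74 ± 0.27 over P0, and Csf1r by 0.48 ± 0.17 over P3.

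The largest fall was in Lyve1, at 14.8, 7.53 and 8.15 CPM at P0, 2.65, 6.78 and 3.19 CPM at P3 and 1.40, 1.58 and 1.57 CPM at P12 (-2.74 ± 0.51 against P0, adjusted p = 7.69e-05), with 1 high library at P0 and 1 at P3. Against P3 its change was -1.47, and without wild-type replicate 2 of P3 it was -0.95 and not called. Fcgr1 and Fcgr3, activating Fc receptors, fell early. Fcgr1 stood at 4.35, 5.70 and 5.48 CPM at P0, 2.74, 2.70 and 2.41 CPM at P3 and 1.79, 3.61 and 1.73 CPM at P12. Fcgr3 stood at 10.9, 11.5 and 12.2 CPM at P0, 4.89, 8.88 and 5.17 CPM at P3 and 4.65, 7.53 and 5.32 CPM at P12. They were the only genes called at P3 against P0 (-0.99 and -0.87), where 0 were higher and 2 lower, with 12.8% of all genes higher and 11.9% lower. Both calls were lost without wild-type replicate 1 or 3 of P0 or of P3.

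Arg1 held 0.627, 1.20 and 1.22 CPM at P0, 1.14, 0.885 and 0.596 CPM at P3 and 0.302, 0.473 and 0.228 CPM at P12 (-1.62 ± 0.44 against P0). Laptm5 held 33.2, 32.4 and 29.0 CPM at P0, 21.3, 23.9 and 19.6 CPM at P3 and 15.9, 21.3 and 17.9 CPM at P12 (-0.78 ± 0.21 against P0), and Ctss 16.1, 17.5 and 19.6 CPM, 11.4, 12.9 and 12.6 CPM and 6.62, 13.5 and 8.70 CPM (-0.89 ± 0.29). For both genes every P12 library lay below every P0 library. Fcer1g, Spi1, Msr1 and Gpnmb were lower too, with changes of -0.84, -0.62, -1.24 and -1.52. At P12 against P3, 5 genes were higher and 4 lower (18.6% and 17.0% of all genes), the falls being Arg1, Folr2, Lyve1 and Trem2. Trem2 stood at 1.30, 1.33 and 1.79 CPM at P0, 3.13, 2.59 and 2.21 CPM at P3 and 1.08, 1.02 and 1.39 CPM at P12, so that its P3 libraries were the highest. Folr2 stood at 2.03, 1.52 and 1.37 CPM at P0, 1.20, 2.91 and 1.502 CPM at P3 and 1.07, 1.02 and 0.936 CPM at P12. Without wild-type replicate 2 of P3 the Folr2 change against P3 was -0.42, in place of -0.89, and not called. Without wild-type replicate 1 of P12 the P12 against P0 count was 9, and without wild-type replicate 3 of P12 it was 10 and the P12 against P3 count 5.

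**Figure D4:**
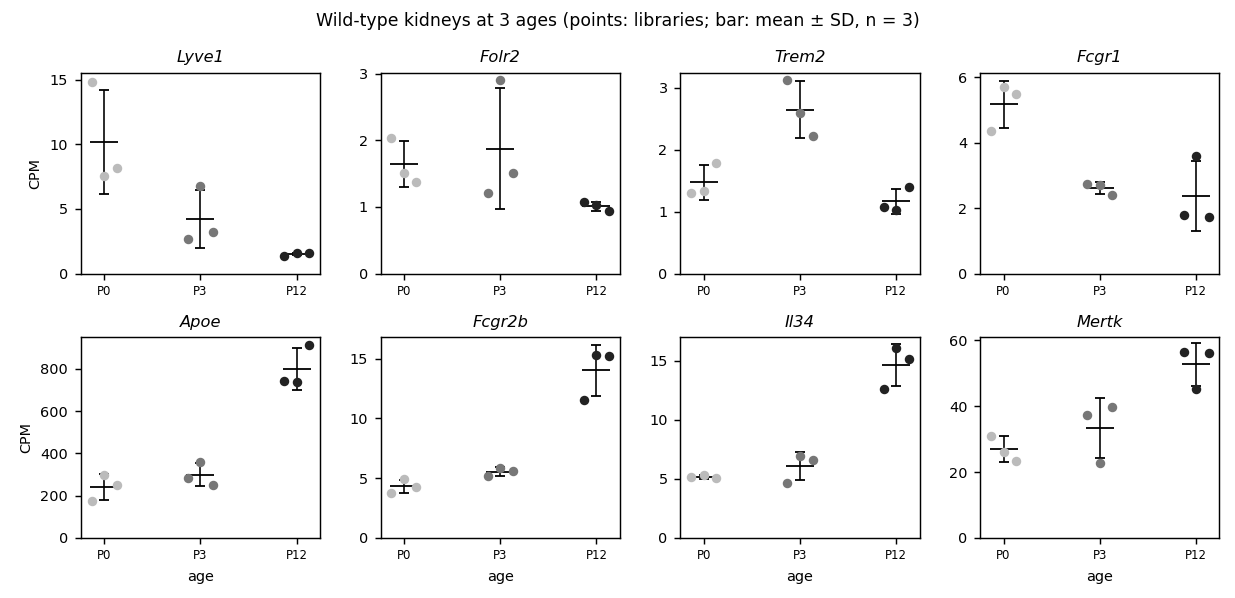
CPM of 8 macrophage genes in wild-type kidneys at P0, P3 and P12, with points for libraries and bars for the mean ± SD of 3. The upper row holds Lyve1, Folr2, Trem2 and Fcgr1. At P12 Lyve1 was called lower than at P0 and than at P3, Fcgr1 only against P0, and Folr2 and Trem2 only against P3. The lower row holds Apoe, Fcgr2b, Il34 and Mertk, which were called higher at P12 than at P0 and than at P3.

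Other genes of myeloid cells were read from lists chosen with earlier results of these data known. Of 17 further macrophage genes in the table, 16 were higher and 0 lower in digenic than in wild-type kidneys at P12, with a median of 2.07. Clec4n, the lectin dectin-2, rose by 3.12 ± 0.36 and Pf4, a chemokine, by 1.36 ± 0.18 (adjusted p = 0.000152 and 0.000319). Clec4a1 rose by 2.37 ± 0.32 and Ly86, a partner of a Toll-like receptor, by 2.47 ± 0.33 (adjusted p = 0.000349 and 0.000357). At P3, 5 of the 17 were higher and 0 lower, among them Siglec1 (1.73 ± 0.22) and Clec4n (1.24 ± 0.23). Of 16 signalling genes downstream of the receptors above, 15 were higher and 0 lower, with a median of 1.74. They included the adaptor Pik3ap1 (2.499 ± 0.29) and the actin regulators Vav1 (2.29 ± 0.30), Nckap1l (1.84 ± 0.23) and Dock2 (1.86 ± 0.26). Of the transcription factors of myeloid cells, 4 of 12 were higher, 1 was lower and the median was 0.14. Runx1, Cebpb and Ikzf1 rose by 1.49 ± 0.18, 1.01 ± 0.17 and 1.67 ± 0.30, while Nr1h3, a sterol receptor, fell (-0.67 ± 0.20). Of 3 monocyte attractants measured of 9 listed, Cx3cl1 and Ccl12 rose by 0.51 ± 0.11 and 2.13 ± 0.63. Of 6 genes linked to polarisation measured of 11 listed, 3 rose (Socs3 by 1.62 ± 0.19, Il4ra by 0.90 ± 0.12 and Chil3 by 3.99 ± 0.77) and Nos2 fell (-0.48 ± 0.13).

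Markers of other cells were read beside these. Neutrophils share Itgam, Itgb2, Fcgr3, Fcgr4, Cybb, Tyrobp and Fcer1g with macrophages, and 7 of 8 neutrophil markers measured were higher in P12 digenic kidneys, 0 lower, with a median of 4.03. They summed to 74.7, 12.9 and 114 CPM in digenic kidneys, against 6.49, 11.2 and 8.47 CPM in wild type, and were lowest in digenic replicate 2, as 35 of the 37 macrophage genes were. S100a8 stood at 26.7, 3.53 and 33.5 CPM in digenic and 0.818, 1.78 and 0.493 CPM in wild-type kidneys. At P3 none of the 8 was called, with sums of 12.5, 11.5 and 8.54 CPM in digenic and 8.94, 8.33 and 10.5 CPM in wild-type kidneys. Lymphocyte markers had 2 higher and 1 lower of 5 at P12 (sums of 11.8 to 27.7 CPM in digenic and 7.51 to 11.8 CPM in wild-type kidneys), dendritic cell markers 0 higher and 1 lower of 3, mast cell markers 1 higher and 0 lower of 5 and erythroid and adrenal genes 0 of 6 each. Lymphatic endothelium, which expresses Lyve1, had 2 higher and 1 lower of 5, with Ccl21a up by 5.20 ± 0.67 and Prox1 down (-0.89 ± 0.17). Kidney epithelial genes had 1 higher and 5 lower of 8, and summed to 6897, 8509.5 and 8435 CPM in digenic and 9056, 9473 and 10069 CPM in wild-type kidneys. At P0 no gene of these lists was called in digenic against wild-type kidneys. The part of these cells in the values of the 37 genes was not tested. Digenic replicate 1 of P12, which held adrenal transcripts at 2.1 CPM, had the highest level of 21 of the 34 genes that rose. The other 2 digenic libraries of P12 held adrenal transcripts, so that a fit without such libraries leaves replicate 1 alone in the digenic group, takes the spread from the other groups and is no check on the P12 calls (33 higher and 0 lower).

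**Figure D5:**
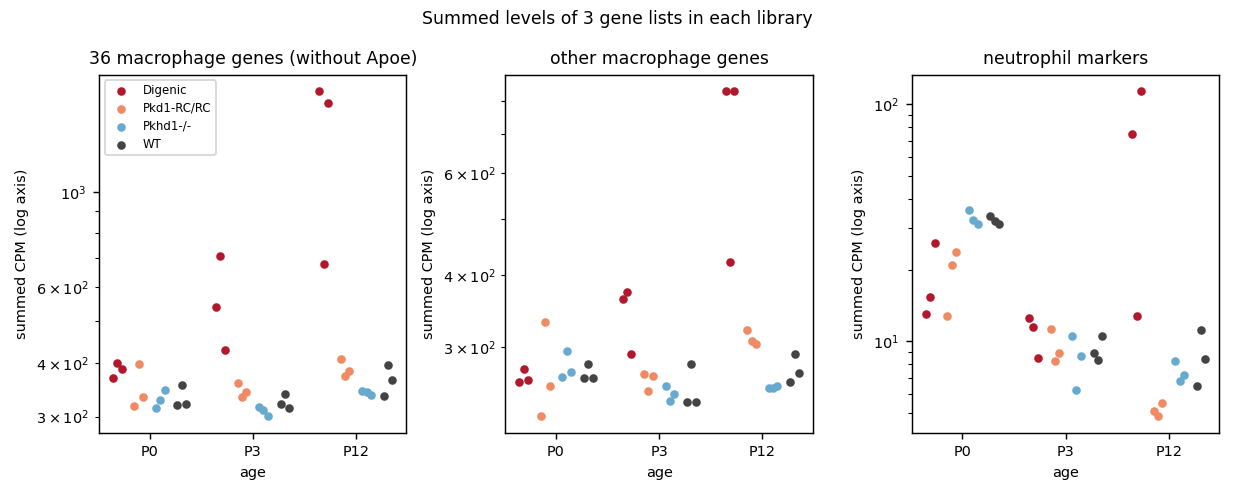
Summed CPM (log axis) of 36 macrophage genes, of other macrophage genes and of neutrophil markers in each of 36 libraries, by age and genotype. Digenic libraries lie above wild type in the first list at P3 and P12. They do so at P0 as well, where 11 of the genes were wholly lower, but the P0 sums overlap with Apoe included (498 to 573 CPM in digenic, against 493 to 654 CPM in wild type) or with Csf1r also left out (253 to 278 CPM in digenic, against 265 to 279 CPM in wild type). In the neutrophil list they lie below wild type at P0 and above it at P12, where replicate 2 is close to the wild-type range.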

How the data were processed

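Whole kidneys were sequenced as 150-base paired ends, 3 libraries per genotype and age. The deposited table holds counts of reads per gene, made by the authors with MAP-RSeq 2.1.0, per the series' design text. TopHat2, Bowtie, featureCounts and the build mm10 are named in the submitters' processing notes, as is edgeR. Library strandedness and the treatment of reads shared by paralogs are not given in the sources used here. A further 36 columns of normalized values were not used. The lowest mean count of any gene in the deposited table was 8.75.

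The tests were edgeR's (4.0.16, run with limma 3.58.1 under R 4.3.3), with filterByExpr, TMM factors and a robust quasi-likelihood fit of the counts. Each age was fitted on its 12 libraries, and comparisons between ages on all 36. Benjamini-Hochberg adjusted p-values cover all genes tested and 0.05 was the threshold. The SE is the log2 fold change divided by the root of F. CPM used TMM factors over all 36 libraries, RPKM the deposited gene lengths, and the log2 CPM of the heat map a prior count of 2. Libraries were held to contain adrenal transcripts above 10 times the median sum of the adrenal list. DESeq2 1.42.0 and the other alternatives are given in the closing section. No 2 libraries of a group agreed within counting noise (lowest chi-square per degree of freedom 17.93). Each library has its own number in the labels, and groups whose headers name both sexes hold more than 1 mouse. The labels do not say that every library is a separate mouse, and p-values cover the spread among these libraries, which may be technical in part.

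The 38 genes and the other lists were chosen with earlier results of these data known. Values per library are given for up to 10 called genes with the smallest adjusted p in each comparison, and for other lists up to 4 genes are named by the smallest adjusted p in digenic against wild type at P12. Other genes, such as those with the largest changes or none, were named after their values were seen. Promoter stretches come from RefSeq (GRCm38.p6), and the search covered 250 bases before each start.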

Additional observations from a re-analysis of the deposited data

Results flagged for a closer look

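The digenic effect, digenic against wild type on the log2 scale, differed between ages by a test of the difference itself (edgeR, adjusted p under 0.05) for the genes below. From P0 to P12 it increased by 4.08 for Fcgr4, 2.93 for Fcgr1 and 2.86 for Fcgr3, and by 2.36 and 2.54 for the adaptors Tyrobp and Fcer1g. Among the integrins the increase was 3.84 for Itgax, 1.94 for Itgb2 and 1.59 for Itgam. Identity markers increased by 3.83 (Ms4a7), 3.29 (Aif1), 3.24 (Adgre1), 2.59 (Laptm5) and 2.23 (Cd53). Lysosomal and lytic genes increased by 3.59 (Ctss), 3.24 (Gpnmb), 3.10 (Mpeg1), 2.91 (Lyz2) and 1.95 (Cd68). For the receptors Clec7a, Trem2, Msr1, Cd14 and Cd163 the increases were 2.72, 2.21, 2.04, 1.97 and 1.88. The oxidase subunit Cybb gave 3.13, the transcription factor Spi1 2.25 and the growth factor Csf1 1.24. Without digenic replicate 1 of P12 the Csf1 increase was 0.82 and not called.

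From P3 to P12 the increase was 2.92 for Ms4a7, 2.54 for Trem2, 2.28 for Ctss and 1.77 for Laptm5. It was 1.70 for Adgre1, 1.69 for Fcgr3, 1.62 for Mpeg1 and 1.54 for Tyrobp. Cd53, Cd14 and Cd68 gave 1.41, 1.31 and 1.28. Digenic replicate 1 of P12, whose header names P3, and the adrenal transcripts of digenic replicates 2 and 3 of P12 enter these values, and their part was not tested, since a fit without the libraries holding adrenal transcripts keeps replicate 1 alone in the P12 digenic group.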

How the results depend on the processing

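Of the 224 calls of single genes, 0 reversed in 3394 alternative values, 2975 kept their call and 419 lost it. At P12 the call counts of digenic against wild type, Pkd1-RC/RC and Pkhd1-/- stayed within 1.5 times of the main count under every alternative run. In digenic against wild type, 29 of the 35 called genes kept their call in all 14 alternatives. Of the 27 genes called in the P12 interaction, 15 kept their call in all alternatives. At P3 this held for 0 of the 10 genes called against wild type, 0 of 4 against Pkd1-RC/RC and 0 of 18 against Pkhd1-/-. Counts that moved by more than 1.5 times were as follows. With DESeq2's test the counts were 5 for digenic against wild type at P0 (main 1), 1 and 4 for digenic against Pkd1-RC/RC and Pkhd1-/- at P0 (main 0), 20 for digenic against wild type at P3 (main 10), 17 for digenic against Pkd1-RC/RC at P3 (main 4) and 7 for the P3 interaction (main 0). They were 1 each for Pkd1-RC/RC against wild type and against Pkhd1-/- at P12 (main 0), 5 for wild type at P3 against P0 (main 2) and 17 for the change of the digenic effect from P3 to P12 (main 11). In 1 fit of all 36 libraries they were 7 for digenic against wild type at P0, 3 for digenic against Pkhd1-/- at P0 and 1 for each of the 2 Pkd1-RC/RC comparisons at P12. With sex as a term the digenic counts were 2 at P0 against wild type and 0 at P3 against wild type, Pkd1-RC/RC and Pkhd1-/-. With the sex of the header, an alternative chosen after the data were seen, the P3 counts were 3, 0 and 5. Without libraries holding adrenal transcripts they were 2 against wild type and 1 against Pkhd1-/- at P0, 16 against wild type and 9 against Pkd1-RC/RC at P3, 4 for the P3 interaction and 8 for wild type at P3 against P0. At P12 these fits keep 1 digenic library, assumed to vary like the other groups, and are no check on the P12 counts.

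Leaving out 1 library gave 0 to 2 calls for digenic against wild type and 0 to 1 against Pkhd1-/- at P0. At P3 it gave 4 to 19 against wild type, 0 to 15 against Pkd1-RC/RC, 6 to 20 against Pkhd1-/- and 0 to 8 for the interaction. At P12 it gave 16 to 30 for the interaction and 0 to 1 for Pkd1-RC/RC against wild type and against Pkhd1-/-. Between ages it gave 0 to 3 for wild type at P3 against P0, 5 to 8 at P12 against P3, 9 to 15 at P12 against P0 and 6 to 23 for the change of the digenic effect from P3 to P12.

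Of 54 same-numbered pairs of libraries, 12 correlated above 0.1 in their deviations from the group means (r from -0.704 to 0.603, median -0.0479). Differently numbered pairs were not read beside them, so that whether replicate numbers pair the samples was not settled. With the replicate block the counts were 33 for digenic against wild type at P12, 7 at P3, 1 for digenic against Pkd1-RC/RC at P3, 12 against Pkhd1-/- at P3 and 23 for the P12 interaction. With 3 libraries a group and low levels of genes such as Arg1, Gpnmb and Itgax, differences smaller than the spread shown could not be called.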
